A study of Drosophila melanogaster with 2 samples.

Results

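Broad GAF domains are the enriched regions of 2000 bp or wider on the autosomal arms 2L, 2R, 3L and 3R, taken from the region list of the GAF ChIP-seq in Drosophila S2 cells. Of 3366 regions on these arms, 617 (18.3%, 95% Wilson interval 17.1 to 19.7%) met this limit, out of 4604 regions in the whole list. Wilson intervals here and below cover counting error only, not spread between replicates. The domains were chosen by their measured width, so that width, and the number and heights of individual peaks from the same profile, describe the domains and test nothing. The series holds GAF ChIP-seq of untreated S2-DRSC cells, an established line derived from Drosophila embryos, and of the same line treated for 5 days with 10 µg/ml of GAF dsRNA. Every value below comes from the untreated cells, which the notes deposited with the lists call mock-RNAi cells. Knock-down libraries were not analysed here. The 2 replicates of the untreated cells entered region calling as a single data set. Their spread was not analysed here, and the combined list allows no test between samples.

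GAF (GAGA factor, the product of Trithorax-like) is a DNA-binding protein that recognizes GAGAG-type repeats through a zinc finger and carries a BTB domain through which the protein assembles into oligomers. GAF is known for binding clusters of neighbouring GAGA elements, for its ties to nucleosome remodelling complexes and for its presence at promoters with paused RNA polymerase II, Hsp70 among them. In a ChIP-seq profile, closely spaced binding sites give overlapping enrichment that a peak caller reports as a broad region. A splitting step then divides such a region into individual peaks, each with a summit and a height, the number of overlapping tags at that summit.

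The domains were strongly enriched for the most part. Their median width was 2560 bp, with quartiles of 2216 and 3367 bp. The median fold enrichment, as listed against the control IP, was 74.8 (quartiles 48.8 and 100.8). In 129 domains (20.9%) the expected number of tags behind it was at a genome-wide level of 5.88. That level was computed from the filtered ChIP tags, not from the control IP. An empirical false discovery rate (FDR) was listed as 0 for 561 domains (90.9%). It was at or below 5% for 597 domains (96.8%) and for 1604 of the 2749 narrower autosomal regions (58.3%). Width and FDR come from the same tags, so this difference tests nothing. Together the domains covered 1864220 bp and held 1320034 tags, which was 19.9% of the filtered tags of the ChIP (95% Wilson interval 19.8 to 19.9%, for counting error only). They made up 38.5% of the length of all autosomal regions and held 53.7% of the tags in them. The combined ChIP held 11288498 tags, of which 6645644 were left after duplicate filtering, and the control IP held 5181809 filtered tags.

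The limit of 2000 bp fell within a continuous range of widths. The narrowest domains, on 2R from 11022206 to 11024205 and on 3R from 17455499 to 17457498, were both 2000 bp wide, with tallest peaks of 739 and 533 tags. The widest regions left out were 1998 bp wide, on 2L from 16644281 to 16646278 and on 3L from 15580638 to 15582635, with tallest peaks of 108 and 214 tags. Positions are in the dm3 build of the genome and are counted from 1.

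The domains held 3511 individual peaks, which was 34.9% of the 10071 individual peaks on these arms. A domain held a median of 5 individual peaks, with quartiles of 4 and 7 and a range from 2 to 39, and every domain held at least 2. The density of individual peaks was similar along the range of widths. It had a median of 1.9 per kb in the 414 domains under 3000 bp, 1.83 per kb in the 161 domains of 3000 to under 5000 bp and 1.8 per kb in the 42 domains of 5000 bp or more. Wider domains therefore held more individual peaks at about the same density, as the plot of width against individual peaks shows. This density was not particular to the domains. Its median was 2.03 per kb in autosomal regions of 1000 to under 2000 bp and 1.84 per kb in X regions of 2000 bp or more. The splitting step sets the number of individual peaks, and its part in this density was not tested.

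**Figure D1:**
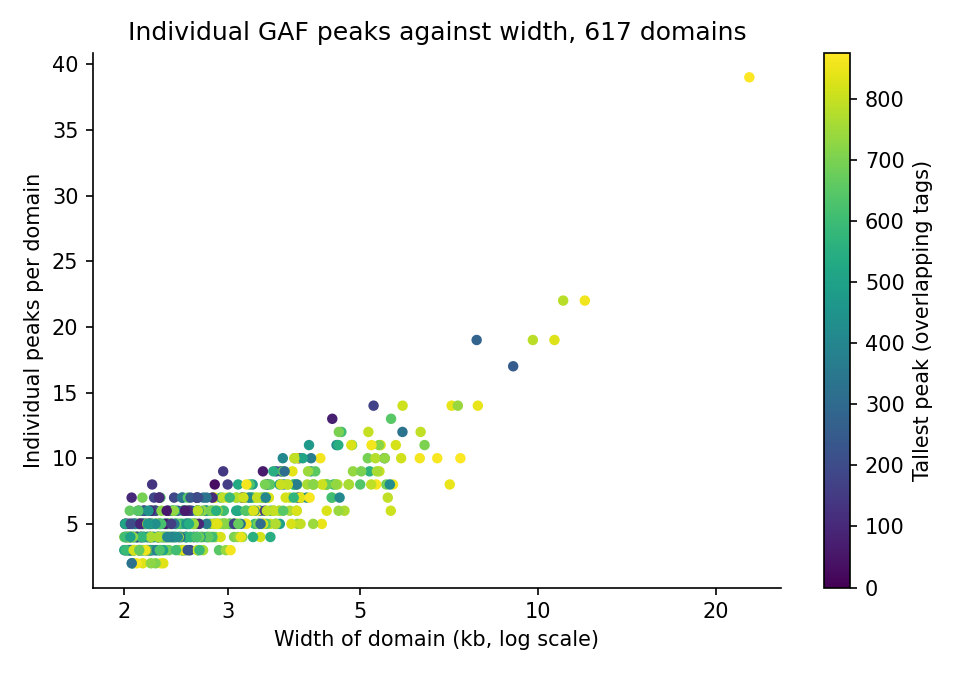
Number of individual GAF peaks in each of 617 domains against the width of the domain in kb on a log scale, with the height of its tallest individual peak, in overlapping tags, as colour. Numbers run from 2 to 39, and the widest domain, at 22791 bp, stands alone with 39.

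High individual peaks were a minority within the domains. Of the 3511 individual peaks, 1213 (34.5%) reached at least 100 tags, 264 (7.52%) reached at least 700 and 929 (26.5%) stayed under 20. The domains held 264 of the 381 autosomal individual peaks of at least 700 tags (69.3%, Wilson interval 64.5 to 73.7%), and 26.6% of those under 20 tags. Many of the low peaks lay close to background. Of 3513 peak assignments, 830 (23.6%) were under 2 times the control expectation, the number of tags expected at the summit of their region. Height also had an upper limit, because no more than 3 tags were kept at a position and strand. With fragments of 146 bp this allowed at most 876 overlapping tags, and 86 individual peaks in the domains had at least 800.

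Neighbouring summits within a domain lay a median of 495 bp apart, over 2896 distances with quartiles of 345 and 670 bp. The distances ran from 35 to 1780 bp, with 9 of them under 100 bp and 123 from 100 to under 200 bp. Spacing differed with the height of the peaks compared. Where both neighbours had at least 100 tags, the median distance was 630 bp over 489 distances, and the closest pair lay 260 bp apart. Where neither reached 100 tags, the median was 335 bp over 1238 distances. Distances between high neighbours had no narrow mode, with between 11.7% and 16.2% of them in each 100 bp class from 300 to 800 bp, as the plot of summit spacing shows. Positions of summits fell on a 5 bp grid. How the splitting step affects these distances was not tested.

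**Figure D2:**
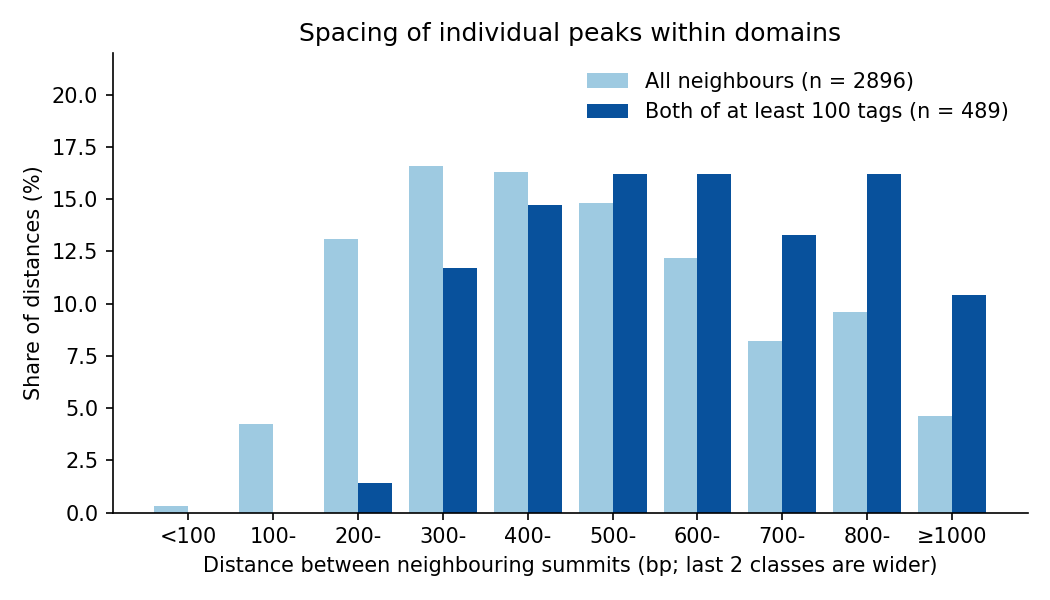
Share of distances between neighbouring summits in each distance class in bp, for all neighbours within domains (light bars, n = 2896) and for neighbours that both have at least 100 tags (dark bars, n = 489). The dark bars have nothing under 200 bp and are spread widely above 300 bp.

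High peaks in the same domain mostly stood side by side. Among 637 successive pairs of individual peaks with at least 100 tags in the same domain, 489 (76.8%) had no lower individual peak between them. With a median of 5 individual peaks per domain and low peaks at the ends, much of this share is built in. No baseline for it was computed. Counted over such pairs, including those with lower peaks between, the median distance was 720 bp, and the longest was 7640 bp. Height is lower away from the tallest peak by definition, and its median differed little beyond the nearest neighbours. Individual peaks next to the tallest had a median of 34 tags (quartiles 20 and 157.8), or 9.04% of its height. The 765 peaks 2 steps away had a median of 24 tags, the 456 peaks 3 steps away had 21 and the 240 peaks 4 steps away had 23. Their upper quartiles were 60, 51.5 and 44 tags. Only domains with enough individual peaks enter the later steps, so these medians come from different sets of domains. The first and last individual peaks of the domains had a median of 20 tags, against 53 for the inner ones. Regions end where enrichment falls, so that low end peaks are in part built in. The position of the tallest peak had a median of 52.5% of the width from the start of the domain, and it was the first or last individual peak in 144 domains (23.3%). That share was 54.5% of the 88 domains with 2 or 3 individual peaks, 24.1% of the 286 with 4 or 5, 14.4% of the 181 with 6 to 8, and 1 of the 62 with 9 or more. A fall is built into this comparison, because the first and last are a smaller part of the peaks where there are more of them.

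The heights of the individual peaks within a domain were uneven. The tallest peak had a median of 623 tags (quartiles 385 and 744), the second tallest 192 (quartiles 54 and 451), the third 35 and the fourth 22, where a domain had that many. The tallest peak took a median of 56.7% of the summed heights of its domain, with a range from 15.2% to 98.2%. It took 75% or more in 167 domains (27.1%) and under 30% in 29 (4.7%). The inverse Simpson number, which gives how many equally high peaks would be as uneven, had a median of 2.18 and a maximum of 9.3.

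The second tallest peak was measured against the tallest whatever its height in tags. In 297 domains (48.1%, Wilson interval 44.2 to 52.1%) no other peak reached 50% of the tallest. In 226 (36.6%) exactly 2 peaks reached that level, the tallest included, in 76 (12.3%) exactly 3 did and in 18 (2.92%) at least 4. The second tallest reached 80% or more of the tallest in 150 domains (24.3%) and stayed under 10% of it in 116 (18.8%). Where it reached at least 50%, its summit lay a median of 850 bp from the tallest, with quartiles of 607.5 and 1322.5 bp, and the pair were neighbours in 189 of 320 domains (59.1%). Second peaks close to the tallest and second peaks far below it both occurred among domains with high summits. In the 242 domains with a tallest peak of 400 to under 700 tags, the second tallest had quartiles of 14.8% and 78.3% of the tallest, and in the 78 with at least 800 tags the quartiles were 11% and 82.9%. The plot of tallest against second tallest peak shows this spread.

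**Figure D3:**
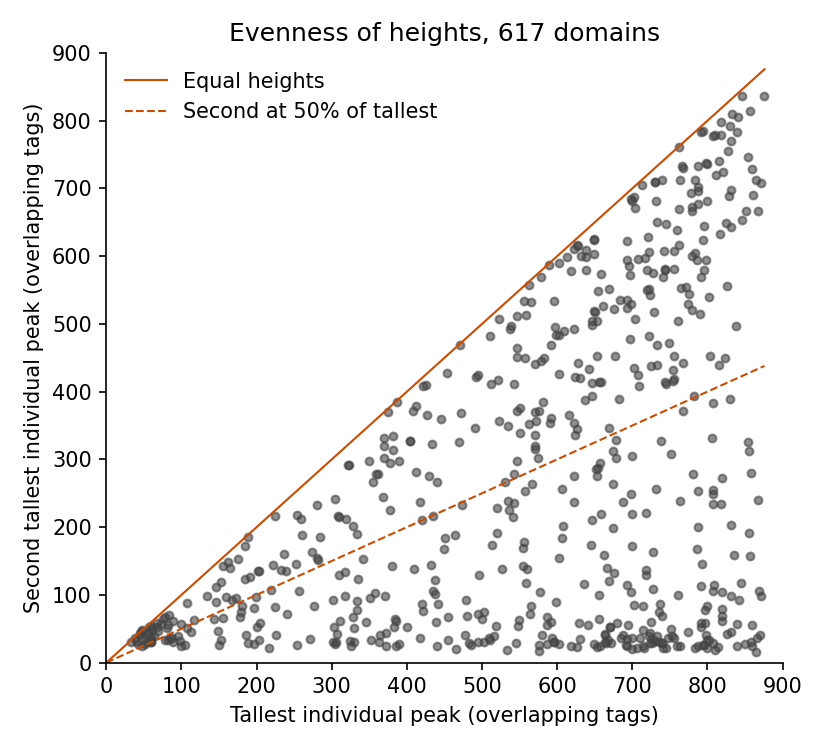
Height of the second tallest against the tallest individual peak in each of 617 domains, both in overlapping tags, with a solid line for equal heights and a dashed line for a second tallest peak at 50% of the tallest. Among domains with a tallest peak of at least 400 tags, points lie both along the lower edge and close to the solid line.

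Evenness varied with height and width. The 41 domains whose tallest peak was under 100 tags had a median share of 37% in the tallest peak, and a median Shannon evenness (1 for equal heights) of 0.905. The 242 domains with a tallest peak of 400 to under 700 tags had a median share of 59.7% and a Shannon evenness of 0.591. In the 78 domains with a tallest peak of at least 800 tags, close to the limit on height, these were 63.7% and 0.584. The 118 domains of 100 to under 400 tags had 54.1% and 0.716, and the 138 of 700 to under 800 had 58.3% and 0.55. Neither measure thus changed steadily with height above 400 tags. The 20 domains with an FDR above 5% were low and even, with a median summit of 59.5 tags, a median share of 32.7% and a Shannon evenness of 0.933. What part nearness to the control has in this evenness was not tested. Along the range of widths, the share of the tallest peak had a median of 62.9% under 3000 bp, 46.5% from 3000 to under 5000 bp and 34.2% at 5000 bp or more. The share falls as peaks are added, and the medians of Shannon evenness, which allows for their number, were 0.591, 0.658 and 0.706. The median tallest peak also rose over these classes, at 568.5, 695 and 788.5 tags, towards the limit of 876 tags. What part that limit has in the evenness of wide domains was not tested. Over the same classes the median number of individual peaks with at least 100 tags was 2, 2 and 4.

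Set beside narrower autosomal regions, the domains differed in the way their choice implies, and no test was run because the rule used width. The 1342 autosomal regions of 1000 to under 2000 bp had a median of 3 individual peaks, a median tallest peak of 251 tags and a median summit distance of 430 bp. In 149 of them (11.1%) at least 2 individual peaks had 100 tags or more, against 384 of the 617 domains (62.2%). Regions of 2000 bp or more on the X chromosome, of which there were 81, had a median of 5 individual peaks, a tallest peak of 489 tags and a share of 53.7% in it. Their median summit distance was 500 bp, and 63 of them (77.8%) had at least 2 individual peaks of 100 tags or more. These medians of spacing and share were close to the 495 bp and 56.7% of the autosomal domains. The median tallest peak on X was below the autosomal 623 tags, but the median fold enrichment was 81 on X against 74.8 in the autosomal domains. Heights are raw tags, and the copy number of the chromosomes was not examined.

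The widest domains combined a few high summits with long stretches of low peaks. The widest, on 3R from 25587181 to 25609971 with 14007 tags, held 39 individual peaks. Its first 21 summits, over 9654 bp from the start of the domain, ran from 8 to 199 tags. Then came 875, 837, 229 and 794 tags at distances of 730, 670 and 1040 bp from each other, then 12 summits of 23 to 142 tags, and then a last high summit of 756 tags followed by 62. The 4 summits above 700 tags therefore lay as a cluster in the middle and a lone peak near the end. Its control expectation, 21.4 tags at the summit, was above the median of 7.55 tags over all domains, and its fold enrichment of 40.9 was below the median of 74.8, although its summit was the highest of the 617 domains. The next domain on 3R began 45 bp after its end. That neighbour, from 25610017 to 25619104, was 9088 bp wide with 17 individual peaks but a tallest peak of only 252 tags, an FDR of 7.12% and a control expectation of 23.7 tags.

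The domain on 3L from 542281 to 554293 (12013 bp, 22 individual peaks) had its high summits near its start. In order they were 19, 815, 857, 57 and 717 tags, and no later summit exceeded 241. On 2R from 7485936 to 7496975 (11040 bp, 22 individual peaks) the summits of 601 and 780 tags were separated by a low peak of 62 tags, and no other summit exceeded 170. On 3R from 5906212 to 5916883 (10672 bp, 19 individual peaks) the high summits came as a pair of 467 and 652 tags and, further on, as lone peaks of 792 and 830 tags. On 2L from 483030 to 492841 (9812 bp, 19 individual peaks) summits of 784 and 712 tags had lower peaks of 24, 18 and 79 tags between them. These 5 domains also had the most individual peaks, with a tie at 19 with a domain of 7884 bp on 3R that starts at 16141774. High summits were at the edge in some of them and in the middle in others, and none had high summits along its whole length.

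The domain with the lowest share in its tallest peak had a different build. On 3L from 14746877 to 14753976, 7100 bp wide, 7 of 8 individual peaks were nearly equal, at 802, 846, 827, 801, 702, 748 and 836 tags, after a first peak of 10 tags. Their summits lay 1105, 1175, 880, 710, 950 and 1060 bp apart. This domain held 17130 tags and 2412.7 tags per kb, both the highest of the 617 domains. Its tallest peak took 15.2% of the summed heights. Since these heights lay between 702 and 846 tags, under the limit of 876, differences between sites could be compressed there. Among domains with at least 4 individual peaks, the widest domain came next, at 17%. After it, at 18.6%, came a weak domain on 2R from 15325293 to 15328136 with 8 individual peaks of 8 to 33 tags and an FDR of 21.5%. Its control expectation was 9.14 tags at the summit, so that its peaks may be background. A low share thus occurred at very different heights.

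At the other end, again among domains with at least 4 individual peaks, were domains with a lone summit. On 3L from 1097983 to 1100366 a peak of 800 tags stood with others of 7, 20 and 21 tags, and took 94.3% of the summed heights. On 2L from 3770404 to 3772452 the heights were 7, 17, 576 and 13 tags, and on 2R from 6097728 to 6099768 they were 11, 21, 745 and 16 tags. These domains were 2384, 2049 and 2041 bp wide, and low peaks flanked the summit in each. The plot of summits along 5 domains shows these arrangements side by side.

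**Figure D4:**
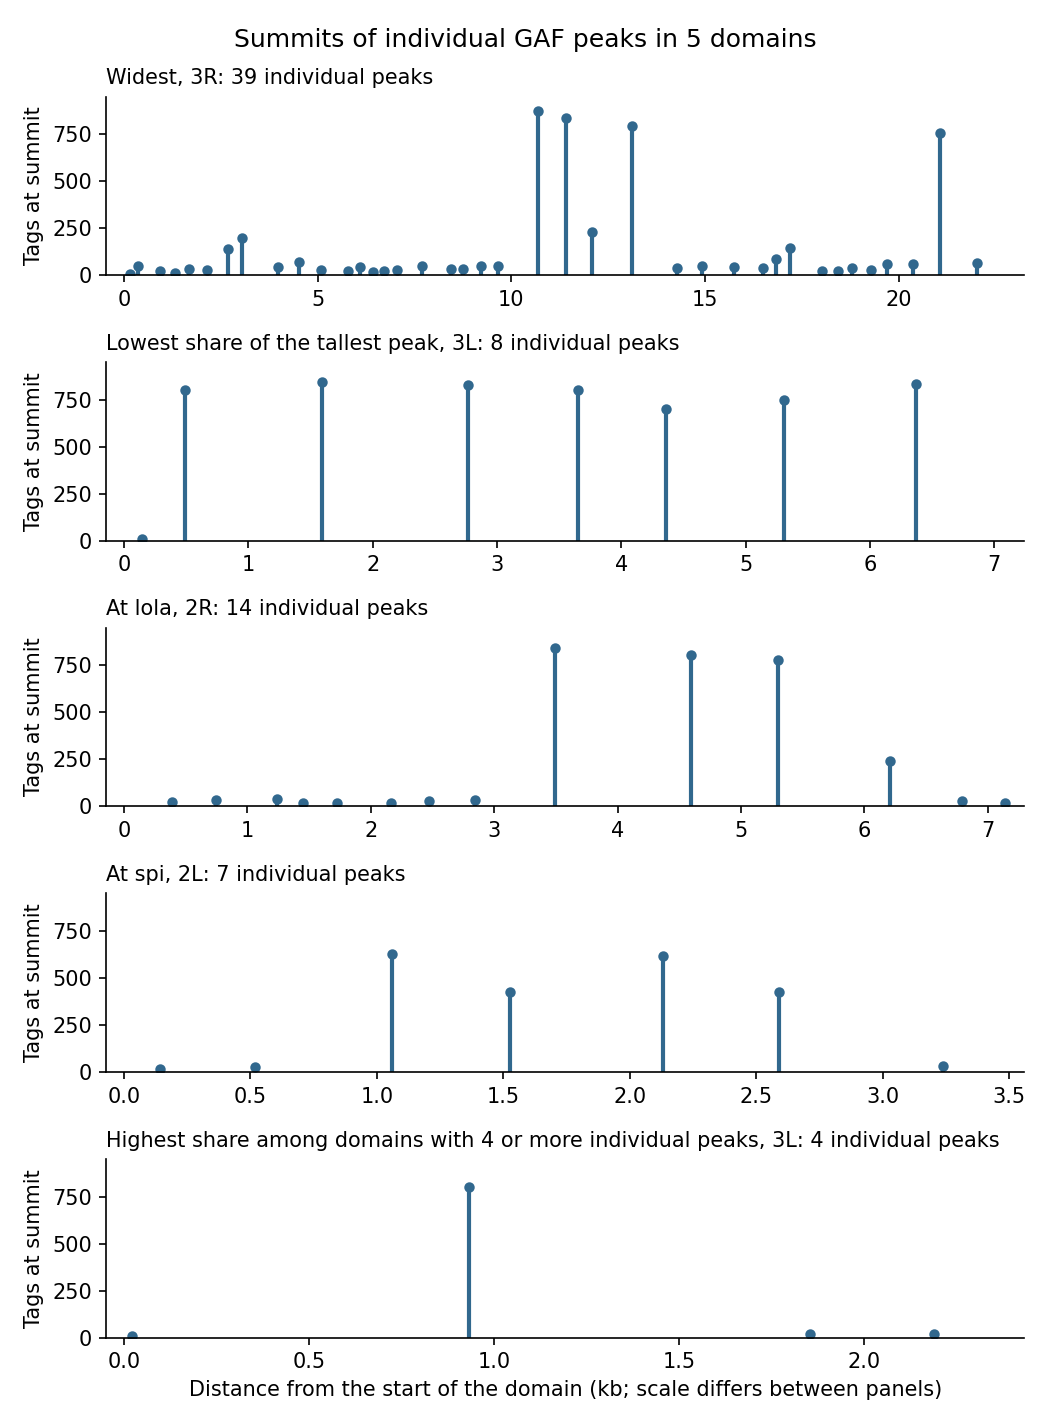
Height of every individual peak, in overlapping tags, against the distance of its summit from the start of the domain in kb, for the widest domain, the domains with the lowest and the highest share of the tallest peak among those with at least 4 individual peaks, and the domains at lola and spi. The widest domain has 4 summits above 700 tags among 39, and the domain with the lowest share has 7 summits between 702 and 846 tags.

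Domains at known genes were looked up through transcript starts in the part of the study's gene table that was held, which lists some of its genes, so that most domains could not be given a gene. The genes below were chosen after their values had been seen, and a start within a domain does not say which gene a peak acts on. Symbols were matched by locus tag to the Release 6 annotation. The first group is regulators of transcription with several high summits. The domain at lola, which encodes BTB zinc-finger proteins of axon guidance, lay on 2R from 6424653 to 6431804 and held 14 individual peaks. Its high summits of 841, 805, 781 and 239 tags lay 1100, 705 and 910 bp apart, and the transcript start looked up fell in the lowest of these. At emc, an inhibitor of basic helix-loop-helix factors, the heights on 3L from 747448 to 750541 were 25, 569, 791, 32 and 9 tags, with the start in the tallest peak. At zfh1, a zinc-finger homeodomain factor, they were 15, 19, 624, 794 and 35 tags on 3R from 26589150 to 26593121, and the start again lay in the tallest.

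Among other transcription factors, the tallest summit stood well above the rest at tsh and dsx. It did so less at klu, where the second reached 42.2% of it. At tsh, a zinc-finger homeotic factor of the trunk, a peak of 760 tags stood between peaks of 19 and 24 tags on 2L from 21827298 to 21830015, and held the start. At dsx, the double-sex factor that directs somatic sex differentiation, the domain on 3R from 3791946 to 3795299 had a summit of 793 tags, the next highest had 145, and the start lay in a peak of 17 tags. At klu, a zinc-finger factor, peaks of 226 and 536 tags were separated by a peak of 15 on 3L from 11001770 to 11004210, with the start in the lower of them. Starts and tallest summits thus coincided at some of these genes and not at others.

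The next genes act in signalling pathways. At spi, which encodes an EGF receptor ligand, heights on 2L from 19574047 to 19577536 were 18, 28, 628, 423, 615, 426 and 30 tags, so that 4 summits exceeded 400 tags, and the start lay in the last, low peak. At kek1, which encodes a transmembrane inhibitor of that receptor, a peak of 664 tags took 86.2% of the summed heights on 2L from 12821581 to 12823687. At Mkp3, an ERK phosphatase, the heights were 23, 23, 763, 238 and 27 tags on 3L from 19078228 to 19081152. At Pdk1, a kinase that activates Akt, summits of 411, 736 and 799 tags were spread over a domain of 5400 bp on 3L from 127926 to 133325. At for, a cGMP-dependent protein kinase, peaks of 497, 281, 538 and 258 tags followed each other on 2L from 3654929 to 3658464. At raw, which restrains JNK signalling, a peak of 693 tags at the end of the domain followed 6 peaks of at most 35 tags on 2L from 8737862 to 8741017. The domains at spi and for were among those with several summits of similar height, whereas kek1 and raw had a lone summit that held the transcript start.

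Paired summits were seen at Lac, cora and how, but not at brat. At Lac, an immunoglobulin-domain protein of septate junctions, summits of 667 and 779 tags lay 820 bp apart on 2R from 8340185 to 8342457. At cora, a band 4.1 protein of the same junctions, summits of 527 and 661 tags stood on either side of a peak of 93 tags on 2R from 15116007 to 15118320. At how, a STAR-family RNA-binding protein, they were 600 and 632 tags, 610 bp apart, on 3R from 17867005 to 17869300. At brat, a translational repressor, a single high summit of 409 tags had a neighbour of 138 on 2L from 19133688 to 19137394, and the start lay in a peak of 9 tags.

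Among metabolic and stress genes, tallest peaks ranged from below 200 tags to nearly 800 tags. The domain at Ldh, lactate dehydrogenase, had a tallest peak of 178 tags on 3L from 6255347 to 6257592. At sgl, UDP-glucose dehydrogenase, summits of 333 and 190 tags were followed by 9 peaks of 16 to 31 tags in a domain of 5906 bp on 3L from 6956135 to 6962040. At Inos, inositol-3-phosphate synthase, peaks of 590 and 602 tags had a peak of 59 between them on 2R from 3343138 to 3347793. At Gadd45, a stress-response gene, a peak of 798 tags stood alone on 2R from 3135233 to 3138803. At Diap1, an inhibitor of caspases, the domain on 3L from 16040830 to 16044441 had a tallest peak of 197 tags and an FDR of 5.04%, so that this domain was among the 20 less certain ones.

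The spacing of domains along the arms varied widely. No baseline of random placement was computed for the gaps or for the groups described below. Gaps between neighbouring domains had a median of 64186 bp over 613 gaps, with quartiles of 10660 and 200178 bp and a range from 2 to 1519167 bp. Gaps of 20 kb or less made up 206 (33.6%), and those over 100000 bp made up 256 (41.8%). The distance to the nearest other domain had a median of 17300 bp, and 253 domains (41%) had another within 10000 bp. The median gap was 41378 bp on 2L, 61279 bp on 2R, 102002 bp on 3L and 61886 bp on 3R. Density followed the same order at its low end, with 5.38 domains per Mb on 3L and 6.45 to 7.03 on the other arms. Width, number of individual peaks and evenness hardly varied between arms, with median widths from 2513 to 2583 bp and a median share of the tallest peak from 55.8% to 57.1%.

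**Figure D5:**
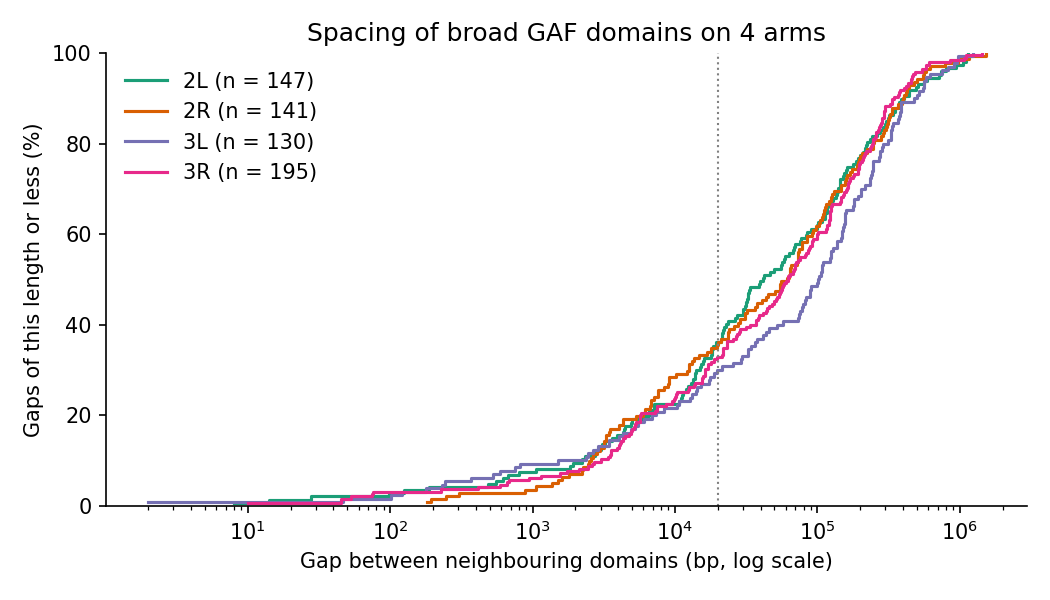
Cumulative share of gaps between neighbouring domains on each arm against the length of the gap in bp on a log scale, with a dotted line at 20 kb. Gaps extend over the range from 2 to 1519167 bp, and the curve of 3L runs below the others from 20 kb to 200 kb, as its median of 102002 bp shows.

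Short gaps were mostly empty of other regions and long ones mostly were not. Of the gaps of 20 kb or less, 124 of 206 (60.2%) held no narrower enriched region, against 36 of 407 longer gaps (8.85%), a difference that the length of the gaps sets in part. The shortest gap, 2 bp, separated the lone-summit domain on 3L at 1097983 from a domain of 2935 bp with a summit of 792 tags. Gaps of 8 and 10 bp followed, on 2L before position 483030 and on 3R before position 12061901. In all, 12 gaps were of 100 bp or less, so that the count of domains depends on where the caller placed their ends. Joining all regions under 500 bp apart raised the count from 617 to 720, since joined narrower regions then reached 2000 bp. The median gap was then 54033.5 bp. The longest gap lay on 2R between 149660 and 1668828 and held 11 narrower regions.

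Joined over gaps of 20 kb or less, the domains formed 117 groups of 2 or more, which held 323 domains (52.4%), and 294 domains stood alone. Groups of 4 or more numbered 19 and held 101 domains. The largest lay on 3R from 12046479 to 12111914, with 10 domains in 65436 bp that covered 40.9% of it. Its domains were 2055 to 4558 bp wide, and their tallest peaks were, in order along the arm, 733, 96, 371, 543, 717, 510, 663, 372, 727 and 330 tags. In 4 of these domains another individual peak also reached 100 tags, in 5 only the tallest did, and in the weakest none did. The gene Mat89Ba has its start in the eighth domain, in a peak of 43 tags. The next largest group, on 2R from 7477370 to 7555020, had 8 domains, the 11040 bp domain above among them, and 17 individual peaks of at least 100 tags. The domain from 7502302 to 7504322 in it held the start of tou, a gene of chromatin remodelling, in a peak of 560 tags. The domain at lola belonged to a group of 6 in 40903 bp, of which domains covered 59.1%. Groups thus held lone-summit domains as well as domains with many high summits.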

How the data were processed

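GAF ChIP-seq of untreated S2 cells was analysed from the lists the authors deposited. The submitters' processing notes name BWA and dm3. Per the file headers and the study's methods, MACS 1.4.0beta called regions on both replicates together, with a pre-immune IP as control (p-value cutoff 1.00e-04, effective genome size 1.65e+08). The series text instead describes the control as non-specific IgG, and fold values depend on which it was. Broad regions were then split into individual peaks with the Subpeaks tool.

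The tag count of a region is a whole number that the authors deposited without normalization. The height of a summit is a signal, the number of overlapping tags, deposited without normalization. The deposited fold enrichment is a ratio, the height at the summit over the number of tags expected there. The deposited score is 10 times the -log10 of the MACS p-value and was not used for ranking. The deposited FDR is in percent.

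Individual peaks were assigned to domains by an overlap of at least 1 bp, which gave 3513 assignments, with 2 individual peaks in 2 domains each. The control expectation was the height divided by the fold enrichment. In 129 of the 617 domains it was at the genome-wide level of 5.88 tags, computed from the filtered ChIP tags. Python 3.11.15, numpy 2.4.6, pandas 2.3.3 and scipy 1.17.1 were used, and the functions were tested on simulated data. Wilson intervals cover counting error only. The domains, classes and alternatives were chosen with earlier results of these data known. Domains named by rule were the 5 widest, the 5 with the most individual peaks, the 3 with the lowest and the 3 with the highest share of the tallest peak among those with at least 4 individual peaks, those at the 3 shortest gaps and the longest gap, those at the limit on width, and the largest group, with ties broken by genome order. Domains named for their genes, and the other domains and groups given, were chosen after their values were seen. Transcript starts came from the held part of the study's gene table, from which no values were taken. Alternatives were the FDR, the limit on width, joining of regions, the overlap, height and width of individual peaks, subtraction of the control, gaps between middles and leaving out an arm. No dm3 genome was used, so that sequences are not shown.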

Additional observations from a re-analysis of the deposited data

How the results depend on the processing

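Of 54 alternatives over 6 results, 42 stayed within the interval of the main value and 12 moved. Many alternatives kept nearly the same data, so this tally does not measure robustness. The FDR limits kept 597 and 582 of the 617 domains, and the stricter overlap kept 2894 of 2896 distances. Intervals of medians treat domains and distances as independent and do not measure spread between replicates. The interval used was of the median, except for the number of domains (within 1.5 times) and the share of filtered tags. For that share, a narrow Wilson counting interval of 19.8 to 19.9% makes small shifts count as moved. A limit of 3000 bp moved most results by its own construction: the number of domains fell from 617 to 203, individual peaks per domain rose from 5 to 7, the share of the tallest peak fell from 56.7% to 43.6%, the gap rose from 64186 to 207512 bp and the share of filtered tags fell from 19.9% to 10.1%. With only individual peaks of at least 20 tags, a domain held a median of 4 and summits lay 590 bp apart, and with those of at least 100 tags the values were 2 and 720 bp, since fewer peaks enter. The share of filtered tags was 19.7% with domains above 5% FDR left out, 19.6% with those above 1% left out, and 22.7% with regions under 500 bp apart joined. Leaving out an arm moved none of the 16 values computed, but each such set shares most domains with the full set, so little movement is built in. The median gap still ran from 56847 bp without 3L to 71550.5 bp without 2L. No paired analysis was possible because both replicates had entered a single region list, which also meant that neither could be left out. Heights are limited to 876 tags, which could compress differences between the strongest sites, and low individual peaks lie near the control. The gene table was held in part. GAGAG elements at summits were not analysed, since no dm3 genome was used.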
